A study of Mus musculus with 8 samples.

Results

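Expression of 10 genes that carry cAMP signals to CREB-bound promoters was followed in cultured mouse pancreatic islets by single nucleus RNA-seq (snRNA-seq). The genes were taken by name and all 10 were among the 17362 genes of the expression table. They encode the bZIP factors Creb1, Crem and Atf1, the CREB regulated coactivators Crtc1, Crtc2 and Crtc3, the acetyltransferases Crebbp (CBP) and Ep300 (p300), and the salt inducible kinases Sik1 and Sik2. Islets came from C57BL/6J wild type (WT) mice and from mice with a whole-body Med14 S983A knock-in (mutant), which removes a PKA site from the scaffold subunit of Mediator. In each genotype islets were untreated (CON), exposed to the adenylyl cyclase agonist forskolin (FSK, 16 h) or exposed to the GLP-1 receptor agonist Exendin-4 (Ex-4, 10 nM, 16 h), so the 3 mutant groups carry the knock-in in every cell type. The FSK dose for islets and the age and sex of the animals are not given in the sources used here. Nuclei were taken from about 100 islets per group and sorted on DAPI.

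In the cAMP pathway, PKA phosphorylates CREB family factors, which lets them bind CBP and p300 at target promoters. CRTC coactivators are held in the cytoplasm by SIK phosphorylation and enter the nucleus when cAMP and calcium signals relieve it. In beta cells this arrangement couples glucose and incretin hormones to gene expression. Sik1 is itself a CREB target and acts as feedback on CRTC activity, and Crem also gives rise to the repressor ICER from an internal promoter, which gene-level counts cannot tell apart from full length Crem.

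Promoters were examined for the cAMP response element because the genes include both CREB itself and kinases that respond to it. RefSeq promoters (GRCm38.p6, 300 bases, from 250 before to 50 after the start) were searched, and results are given for 7 of the 10 genes. Those of Crem, Crtc2 and Sik1 are not reported here, so no statement is made on whether they hold the element. The palindromic element TGACGTCA, searched on both strands, was in 1.79% of 32851 promoters, and its shorter core TGACG, which the palindrome contains, in 20.8%. The palindrome was found in none of the 7. The core was found in Sik2, with matches at -1 on the promoter's own strand and at 13 on the opposite strand, and in Atf1, at -90 on its own strand, counted as the first base from the start site at 1. Creb1, Crtc1, Crtc3, Crebbp and Ep300 had no match in this window. The promoters of Sik2 (chr9:51009024-51009323, minus strand) and Atf1 (chr15:100227609-100227908, plus strand) are shown because they hold the core, in capitals, and that of Creb1 (chr1:64532554-64532853, plus strand) because Creb1 was higher after FSK and its window holds no match.
Sik2: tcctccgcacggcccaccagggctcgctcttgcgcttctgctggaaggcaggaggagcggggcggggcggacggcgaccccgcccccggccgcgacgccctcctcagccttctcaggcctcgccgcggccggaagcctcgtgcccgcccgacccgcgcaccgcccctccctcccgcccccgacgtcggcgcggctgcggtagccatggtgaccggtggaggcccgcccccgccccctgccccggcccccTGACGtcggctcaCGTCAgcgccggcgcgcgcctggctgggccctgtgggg
Atf1: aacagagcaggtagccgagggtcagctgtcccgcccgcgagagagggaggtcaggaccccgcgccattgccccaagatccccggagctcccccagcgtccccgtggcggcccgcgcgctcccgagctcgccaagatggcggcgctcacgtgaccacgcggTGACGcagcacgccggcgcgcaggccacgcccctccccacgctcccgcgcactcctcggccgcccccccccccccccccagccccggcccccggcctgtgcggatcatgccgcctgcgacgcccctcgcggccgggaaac
Creb1: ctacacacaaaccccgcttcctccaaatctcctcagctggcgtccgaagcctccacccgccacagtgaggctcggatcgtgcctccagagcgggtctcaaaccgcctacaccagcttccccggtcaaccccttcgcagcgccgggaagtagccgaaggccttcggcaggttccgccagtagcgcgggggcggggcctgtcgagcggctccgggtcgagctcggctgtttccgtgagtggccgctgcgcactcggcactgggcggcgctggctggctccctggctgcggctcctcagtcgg

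Counts were recovered from the values in the table and are given as counts per 10000 of their column (CP10K), with exact 95% intervals of the counts. The table has a single pool of nuclei for every group and cell type, so no test between groups was possible, intervals cover counting error only, and treatment or genotype cannot be told apart from islet preparation and barcode well. CP10K does not separate the share of nuclei with a transcript from the amount per nucleus. A gene was compared where it had at least 300 counts over the 6 groups of a cell type, and was called higher or lower at a ratio of 1.5 (0.585 on the log2 scale). In beta cells 6555 genes met this, all 10 of the pathway genes included. In alpha cells 2322 genes did, with 6 of the 10 (not Crem, Atf1, Crtc2 and Sik1), and in delta cells 1947, with 4 (Crtc3, Crebbp, Ep300 and Sik2).

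Beta cell columns held 1915006 to 3094377 counts, alpha 269394 to 810127, delta 362410 to 631433 and those of the other 6 cell types 1522 to 159305. Markers of each labelled cell type summed highest in their own columns for 8 of 9 types. The columns labelled neurons were the exception: none of 5 neuron markers was highest there and their sum was highest in delta cells. The 4 macrophage markers were listed at 0 in both Ex-4 macrophage columns. In beta cells the FSK pools were the farthest from the rest. At 1.5-fold, 52.7% of genes differed between FSK and Ex-4 in WT and 48.6% in the mutant, and 9.5% between the FSK pools. The WT CON pool lay between them, with 27.6% of genes different from WT FSK, 34.5% from WT Ex-4 and 45.2% from mutant CON, whereas 3.46% differed between the mutant CON and Ex-4 pools and 6.47% between the Ex-4 pools. WT CON is shared by the WT FSK, the WT Ex-4 and the untreated genotype comparisons, which are therefore not independent.

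Treatment with FSK was used to ask how these genes respond when adenylyl cyclase is activated directly. In WT beta cells Creb1 and Sik1 were higher after FSK and Crtc2 was lower. This is 2 of 10 genes higher, where 7.52% of all genes compared were higher, and 1 of 10 lower, where 20.1% were lower. In mutant beta cells Crem, Creb1, Sik1 and Crtc3 were higher, 4 of 10 against 26.2% of all genes, and Crtc2 and Crebbp were lower, 2 of 10 against 24.2%. The median log2 ratio of the 10 genes was -0.06 in WT and 0.41 in the mutant, beside -0.17 and 0.04 over all genes compared. In the 4 pools without FSK, Sik1 had 243 counts and Crtc2 255, so that neither would meet the minimum there, and Sik1 met it through the pools in which it was higher. With the minimum set on those 4 pools, 8 genes were left, of which 1 was higher and none lower in WT (6.5% and 18.9% of all genes) and 3 were higher and 1 lower in the mutant (24.9% and 25%).

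**Figure D1:**
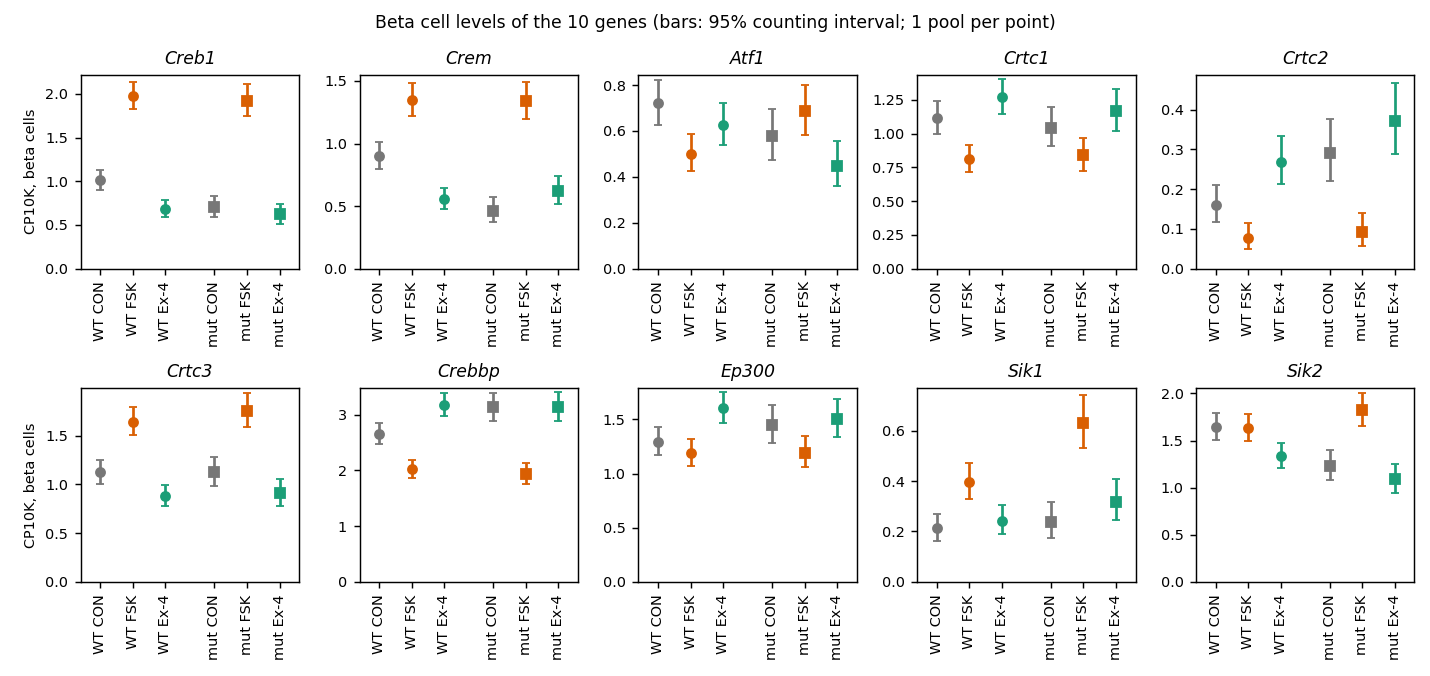
Levels of the 10 genes in beta cells (y axis, CP10K, starting at 0) in the 6 groups (x axis; circles WT, squares mutant; grey CON, orange FSK, green Ex-4), with bars for the 95% counting interval of 1 pool each. Creb1 and Crem sit highest in both FSK pools, at 1.92 to 1.98 and 1.34 CP10K, and Crtc2 lowest, at 0.0776 and 0.0912 CP10K.

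The bZIP factors differed among themselves. Creb1 (chr1:64571731-64643707 in GRCm39, plus strand), the founding member of the family, was at 1.01 CP10K in WT CON, 1.98 in WT FSK, 0.681 in WT Ex-4, 0.706 in mutant CON, 1.92 in mutant FSK and 0.621 in mutant Ex-4 beta cells. Both FSK pools were far above the 4 others, and WT CON was the highest of those 4. The FSK to CON ratio was 1.95 (1.70 to 2.25) in WT and 2.72 (2.24 to 3.32) in the mutant. The FSK pools themselves differed little between genotypes, with a mutant to WT ratio of 0.972 (0.859 to 1.10), while the untreated pools gave 0.698 (0.566 to 0.857), short of the threshold.

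Crem (76.8 kb, on chromosome 18, minus strand), a cAMP inducible relative with activator and repressor products, was at 0.896 CP10K in WT CON, 1.34 in WT FSK, 0.557 in WT Ex-4, 0.462 in mutant CON, 1.34 in mutant FSK and 0.621 in mutant Ex-4. The FSK pools and then WT CON were its highest, as for Creb1. The remaining pools came in the reverse order of those for Creb1, with mutant CON rather than mutant Ex-4 lowest. The WT ratio of 1.5 (1.28 to 1.76) lay just under the threshold before rounding, at 0.58 on the log2 scale, and the mutant ratio was 2.89 (2.28 to 3.71). As for Creb1, the FSK level was alike in both genotypes (mutant to WT ratio 0.995, 0.856 to 1.16) and the larger mutant ratio went with a lower untreated level. The difference between the ratios was not tested. A lncRNA on the opposite strand, Gm6225, overlaps Crem and is counted separately in the table.

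Atf1 (chr15:100125664-100159129, plus strand), which can pair with CREB on DNA, was at 0.720 CP10K in WT CON, 0.501 in WT FSK, 0.627 in WT Ex-4, 0.576 in mutant CON, 0.686 in mutant FSK and 0.449 in mutant Ex-4. It was not called in any of the 7 comparisons in beta cells. Its FSK to CON ratios lay on opposite sides of 1, at 0.695 (0.562 to 0.859) in WT and 1.19 (0.928 to 1.53) in the mutant, the latter with an interval that includes 1.

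The CRTC coactivators moved in different directions. Crtc1 (chr8:70834994-70892394, minus strand) was at 1.11 CP10K in WT CON, 0.811 in WT FSK, 1.27 in WT Ex-4, 1.04 in mutant CON, 0.838 in mutant FSK and 1.17 in mutant Ex-4. The FSK pools were the lowest and the Ex-4 pools the highest. The FSK to CON ratios of 0.729 (0.617 to 0.862) and 0.803 (0.655 to 0.983) did not reach the threshold.

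Crtc2 (chr3:90161460-90171432, plus strand), the coactivator best known from liver and islets, was the rarest in beta cells by counts, with 300 over the 6 pools. It was at 0.159 CP10K in WT CON on 48 counts, 0.0776 in WT FSK on 24, 0.268 in WT Ex-4 on 80, 0.291 in mutant CON on 56, 0.0912 in mutant FSK on 21 and 0.371 in mutant Ex-4 on 71. The FSK pools were lowest in both genotypes, with FSK to CON ratios of 0.487 (0.285 to 0.810) and 0.314 (0.180 to 0.526), or log2 ratios of -1.04 and -1.67. Crtc2 is the shortest of the 10 genes at 9.97 kb, and as an alternative the trend of log2 ratios on gene length over all genes compared was removed. The Crtc2 log2 ratio then was -0.51 in WT, no longer called, and -0.81 in the mutant.

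Crtc3 (chr7:80236375-80338685, minus strand) went the other way, at 1.13 CP10K in WT CON, 1.65 in WT FSK, 0.879 in WT Ex-4, 1.13 in mutant CON, 1.75 in mutant FSK and 0.914 in mutant Ex-4. The untreated pools were alike and both FSK pools were higher, with ratios of 1.46 (1.27 to 1.68) in WT, just under the threshold, and 1.56 (1.32 to 1.84) in the mutant. With the length trend removed the mutant log2 ratio of 0.64 became 0.28 and was no longer called. The opposite strand lncRNA Gm15880 overlaps Crtc3 and has its own row.

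The acetyltransferases were at their lowest after FSK. Crebbp (chr16:3899192-4031861, minus strand) was at 2.66 CP10K in WT CON, 2.02 in WT FSK, 3.17 in WT Ex-4, 3.14 in mutant CON, 1.94 in mutant FSK and 3.14 in mutant Ex-4. The FSK to CON ratio was 0.761 (0.684 to 0.846) in WT and 0.619 (0.546 to 0.700) in the mutant, the latter called lower. Ep300 (chr15:81469540-81537206, plus strand), its close paralog, was at 1.30 CP10K in WT CON, 1.19 in WT FSK, 1.61 in WT Ex-4, 1.45 in mutant CON, 1.19 in mutant FSK and 1.5 in mutant Ex-4. FSK was lowest and Ex-4 highest in both genotypes, over the narrowest range of the 10 genes (0.43 on the log2 scale from lowest to highest pool), and was not called in any comparison.

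The SIK kinases were followed as regulators of the CRTC proteins. Sik1 (chr17:32058850-32074818, minus strand) was at 0.212 CP10K in WT CON on 64 counts, 0.394 in WT FSK on 122, 0.242 in WT Ex-4 on 72, 0.239 in mutant CON on 46, 0.629 in mutant FSK on 145 and 0.319 in mutant Ex-4 on 61. Both FSK pools were the highest and their intervals were apart from those of their own CON pool, and the mutant FSK pool was higher than the WT FSK pool. The FSK to CON ratio was 1.86 (1.36 to 2.55) in WT and 2.64 (1.88 to 3.76) in the mutant. Sik2 (chr9:50800947-50920383, minus strand) was at 1.64 CP10K in WT CON, 1.63 in WT FSK, 1.33 in WT Ex-4, 1.23 in mutant CON, 1.82 in mutant FSK and 1.09 in mutant Ex-4. In WT the FSK and CON pools were alike (ratio 0.993, 0.876 to 1.13), and in the mutant the ratio was 1.48 (1.26 to 1.74), under the threshold. Sik2 overlaps Ppp2r1b, a phosphatase subunit gene on the opposite strand that is also in the table.

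Because WT CON differed from the 3 other pools without FSK, FSK was also set against Ex-4 within each genotype. In WT, Creb1, Crem, Crtc3 and Sik1 were then higher, 4 of 10 beside 19.1% of all genes, and Crtc2, Crebbp and Crtc1 lower, 3 of 10 beside 33.6%. In the mutant, Creb1, Crem, Sik1, Crtc3, Sik2 and Atf1 were higher, 6 of 10 beside 26.4%, and Crtc2 and Crebbp lower, 2 of 10 beside 22.3%. The Creb1 ratio became 2.90 (2.47 to 3.42) in WT and 3.10 (2.52 to 3.82) in the mutant, and that of Crem 2.41 (2.01 to 2.91) and 2.15 (1.74 to 2.68). Creb1, Crem, Crtc3 and Sik1 were called higher and Crtc2 and Crebbp lower in both genotypes on this reference. The Ex-4 pools are a treated group, so these ratios compare 2 agonists.

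**Figure D2:**
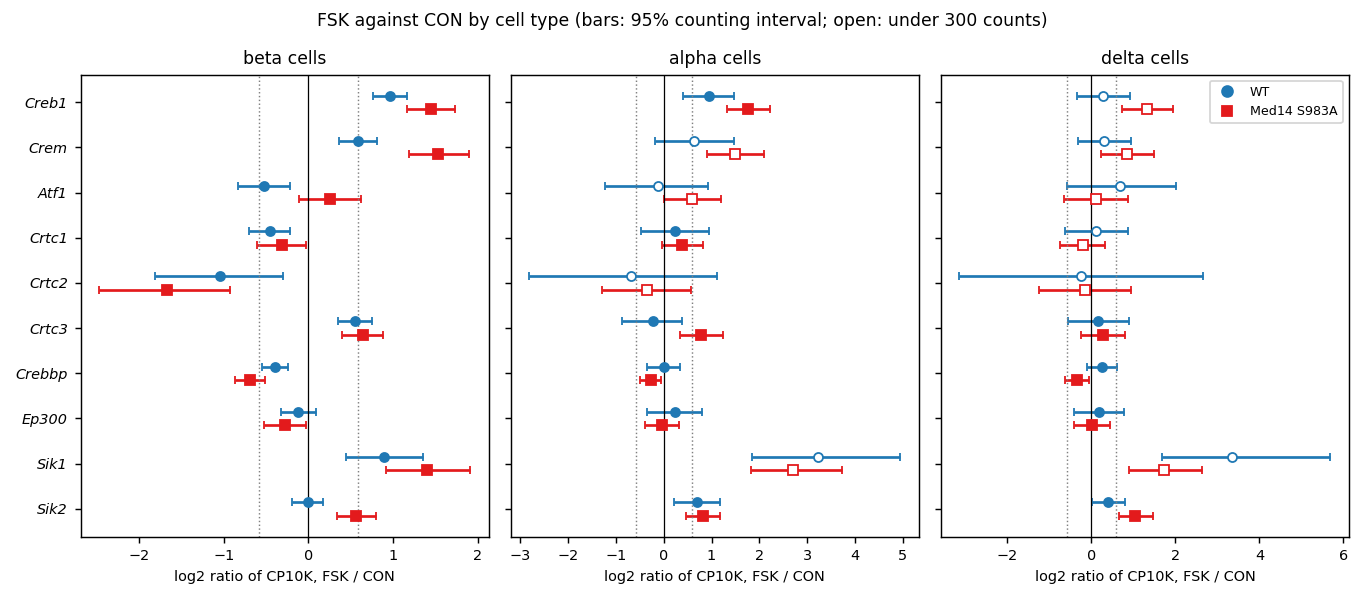
Log2 ratio of CP10K, FSK over CON (x axis), of the 10 genes (rows) in beta, alpha and delta cells, for WT (blue circles) and Med14 S983A (red squares), with 95% counting intervals; open symbols mark genes under 300 counts in that cell type and dotted lines a ratio of 1.5. Sik1 lies farthest to the right in alpha and delta cells of WT, at 3.22 and 3.35, and Creb1 lies right of 0 in all 6 pairs.

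In alpha cells Creb1 and Sik2 were higher after FSK in WT, 2 of 6 genes compared beside 11.5% of all genes, and none was lower, beside 9.6%. In the mutant Creb1, Sik2 and Crtc3 were higher, 3 of 6 beside 22.7%, and none lower, beside 10.3%. Creb1 was at 1.34 CP10K in WT CON, 2.56 in WT FSK, 0.598 in WT Ex-4, 0.679 in mutant CON, 2.30 in mutant FSK and 0.870 in mutant Ex-4 alpha cells, the same high FSK pools as in beta cells. Its FSK to CON ratio was 1.92 (1.33 to 2.78) in WT and 3.39 (2.50 to 4.68) in the mutant. Sik2 was at 1.74, 2.82, 1.60, 1.33, 2.34 and 1.25 CP10K in the same order of groups, with ratios of 1.62 (1.16 to 2.27) and 1.76 (1.38 to 2.25). Crtc3 was at 1.53, 1.30, 0.798, 0.827, 1.43 and 0.643 CP10K in that order. Its WT CON pool was its highest, and its ratio was 0.851 (0.547 to 1.31) in WT and 1.72 (1.26 to 2.37) in the mutant. Crem, too rare to be compared, was at 0.644, 1.00, 0.510, 0.420, 1.17 and 0.303 CP10K and had ratios of 1.56 (0.879 to 2.76) and 2.79 (1.86 to 4.27). Crebbp, lower after FSK in mutant beta cells, had ratios of 0.998 (0.783 to 1.27) and 0.827 (0.707 to 0.967) in alpha cells.

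Sik1 was too rare in alpha and delta cells to be compared by the rule but had the largest FSK to CON ratio of the 10 in both genotypes. In alpha cells it was at 0.119 CP10K in WT CON on 5 counts, 1.11 in WT FSK on 30, 0.332 in WT Ex-4 on 15, 0.148 in mutant CON on 12, 0.967 in mutant FSK on 76 and 0.0882 in mutant Ex-4 on 7. In delta cells it was at 0.0828 CP10K in WT CON on 3 counts, 0.842 in WT FSK on 36, 0.278 in WT Ex-4 on 12, 0.283 in mutant CON on 16, 0.934 in mutant FSK on 59 and 0.326 in mutant Ex-4 on 18. In both cell types the 2 FSK pools were above every other pool. The FSK to CON ratios were 9.34 (3.59 to 30.8) and 6.53 (3.53 to 13.2) in WT and mutant alpha cells, and 10.2 (3.21 to 51.6) and 3.31 (1.88 to 6.16) in delta cells, whereas beta cells had 1.86 and 2.64.

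In delta cells none of 4 genes compared was called after FSK in WT, where 16.7% of all genes were higher and 15.4% lower. In the mutant Sik2 was higher, 1 of 4 beside 31.5%, with none lower, beside 16.4%. Sik2 was at 2.48 CP10K in WT CON, 3.27 in WT FSK, 2.25 in WT Ex-4, 1.31 in mutant CON, 2.71 in mutant FSK and 1.56 in mutant Ex-4 delta cells. The mutant pools without FSK were the lowest, and the FSK to CON ratio was 1.32 (1.01 to 1.74) in WT and 2.07 (1.57 to 2.76) in the mutant. Creb1 and Crem, under the count minimum in delta cells, were again at their highest with FSK. Creb1 was at 1.08 CP10K in WT CON, 1.31 in WT FSK, 0.625 in WT Ex-4, 0.565 in mutant CON, 1.41 in mutant FSK and 0.525 in mutant Ex-4, and its ratio was 1.22 (0.795 to 1.88) in WT and 2.50 (1.65 to 3.86) in the mutant. Crem was at 1.02, 1.26, 0.510, 0.600, 1.08 and 0.452 CP10K, with a ratio of 1.24 (0.799 to 1.93) in WT and 1.79 (1.17 to 2.79) in the mutant. Markers of other cell types moved with some of these groups. The 8 beta cell markers summed to 33.8 CP10K in WT CON alpha cells and 12.5 to 19.4 in the other 5 alpha pools, and the 7 alpha cell markers to 3.60 and 4.36 in the FSK beta pools and 1.09 to 2.37 in the other 4. Their part in the ratios above was not tested.

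Ex-4 was used to ask whether sustained GLP-1 receptor activation changes the same genes. In WT beta cells Crtc2 was higher after Ex-4, 1 of 10 beside 19.5% of all genes, and Crem was lower, 1 of 10 beside 15%. The Crtc2 ratio was 1.68 (1.16 to 2.46) and that of Crem 0.621 (0.509 to 0.757). Creb1 stood just outside the threshold at 0.673 (0.560 to 0.806), and the other ratios lay between 0.781 for Crtc3 (0.662 to 0.920) and 1.24 for Ep300 (1.08 to 1.42). For Atf1, Crtc1 and Sik1 the interval included 1. With the trend on gene length removed, the Crtc2 log2 ratio went from 0.75 to -0.014 and that of Crem from -0.69 to -0.55, and neither was called.

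In mutant beta cells none of the 10 genes was called after Ex-4, and 1.54% of all genes were higher and 1.92% lower. The ratios farthest from 1 were those of Crem, 1.34 (1.01 to 1.79), Sik1, 1.33 (0.895 to 2.00), Atf1, 0.779 (0.581 to 1.04), and Crtc2, 1.28 (0.885 to 1.84). Crem thus lay on opposite sides of 1 in the genotypes, and the difference was not tested. In WT alpha cells Creb1 and Crtc3 were lower after Ex-4, 2 of 6 beside 25.8%, with none higher, beside 18.5%. Creb1 had a ratio of 0.448 (0.272 to 0.721) and Crtc3 of 0.523 (0.337 to 0.798). In mutant alpha cells none of 6 was called, beside 0.56% higher and 1.08% lower. In delta cells none of 4 was called after Ex-4 in WT, beside 15.4% higher and 23.6% lower, or in the mutant, beside 1.28% and 1.9%.

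The genotypes were compared within each treatment. Untreated mutant beta cells had lower Crem, 1 of 10 beside 26.9% of all genes, and higher Crtc2, 1 of 10 beside 18.2%, than untreated WT beta cells. The mutant to WT ratio of Crem was 0.516 (0.401 to 0.658) and that of Crtc2 1.83 (1.22 to 2.74). With the length trend removed Crem stayed called, at -0.62 on the log2 scale, Crtc2 went from 0.87 to 0.13, and Crebbp, at 0.24 before, was called higher at 0.76. After FSK only Sik1 was called of the 10, higher in the mutant with a ratio of 1.60 (1.25 to 2.05), beside 8.36% of all genes higher and 1.14% lower. Its log2 ratio of 0.68 became 0.39 with the length trend removed and was not called. After Ex-4 none of the 10 was called, beside 0.656% higher and 5.81% lower.

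In alpha cells Creb1 and Crtc3 were lower in the untreated mutant, 2 of 6 beside 31.4%, with none higher, beside 18.1%. Their mutant to WT ratios were 0.508 (0.344 to 0.751) and 0.542 (0.379 to 0.776). In delta cells Sik2 was lower in the untreated mutant, 1 of 4 beside 33.6%, at a ratio of 0.526 (0.382 to 0.724), with none higher, beside 16.6%. These counts rest on WT CON, and in all 3 cell types the share of the pathway genes called was near or below the share of all genes. Within FSK none of the genes compared was called between genotypes in alpha cells, beside 4.26% higher and 5.9% lower, or in delta cells, beside 5.96% and 5.14%. Within Ex-4 none was called either, beside 1.12% and 5.04% in alpha cells and 1.85% and 9.81% in delta cells.

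**Figure D3:**
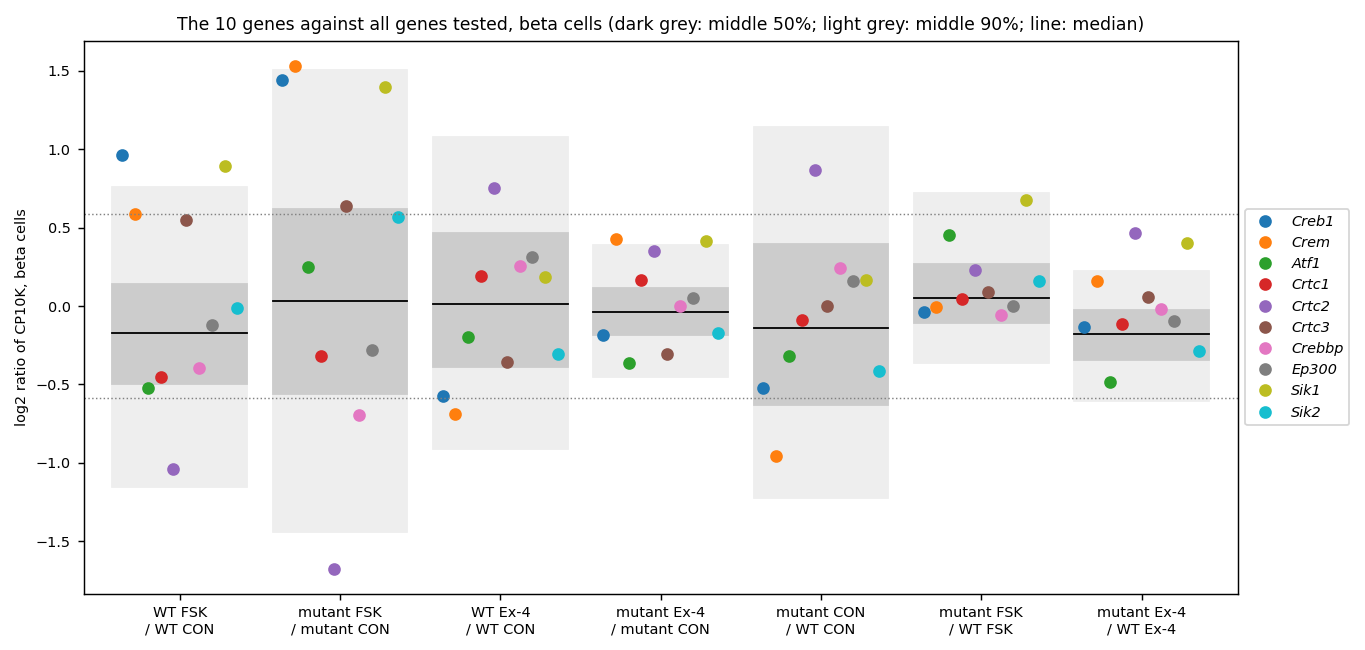
Log2 ratios of CP10K in beta cells (y axis) in 7 comparisons (x axis), with the 10 genes as coloured points over the middle 50% (dark grey), middle 90% (light grey) and median (line) of the 6555 genes compared; dotted lines mark a ratio of 1.5. Creb1 lies above the middle 90% in WT FSK at 0.97, and Crtc2 below it in mutant FSK at -1.67.

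Levels by cell type were taken over the 6 pools of each type and, as an alternative chosen after seeing the data, over the 4 pools without FSK. Counts were summed over pools, so deeper pools weigh more. In alpha cells the mutant pools were deeper (785858 to 810127 counts, WT 269394 to 451338), and in beta cells the WT pools. The ratios between cell types are therefore not free of genotype, and their intervals do not cover this. Crebbp was at 2.64 CP10K (2.56 to 2.72) in beta cells, 4.26 (4.04 to 4.48) in alpha cells and 3.49 (3.28 to 3.71) in delta cells. It was higher in alpha cells by a ratio of 1.61 (1.52 to 1.71) and in delta cells by 1.32 (1.23 to 1.41), in 6 of 6 groups each, and without the FSK pools by 1.47 (1.37 to 1.58) and 1.19 (1.09 to 1.29). Sik2 was at 1.49 CP10K (1.43 to 1.55) in beta, 1.73 (1.60 to 1.88) in alpha and 2.21 (2.05 to 2.39) in delta cells, with ratios to beta of 1.17 (1.07 to 1.28) and 1.49 (1.36 to 1.63), also in 6 of 6 groups each. Without the FSK pools the delta ratio was 1.33 (1.18 to 1.501). The alpha ratio, at 1.05 (0.927 to 1.18), then had an interval that included 1, with alpha higher in 4 of 4 groups. Crem went the other way, at 0.898 CP10K in beta and 0.643 in alpha cells, a ratio of 0.716 (0.620 to 0.825) with alpha lower in 6 of 6 groups, and 0.667 (0.539 to 0.818) without the FSK pools.

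For the other endocrine differences the interval included 1 or the direction turned without the FSK pools. Sik1 had a pooled ratio to beta of 1.45 (1.19 to 1.74) in delta and 1.23 (1.01 to 1.48) in alpha cells, but without the FSK pools these were 1.04 (0.746 to 1.41) and 0.638 (0.443 to 0.897), so that alpha cells were then below beta cells. In WT CON alone Sik1 was at 0.0828 CP10K in delta and 0.212 in beta cells. Creb1 in delta cells had a ratio of 0.767 (0.673 to 0.871) over 6 pools and 0.856 (0.703 to 1.03) over 4. Crtc3 had 0.826 (0.737 to 0.925) in alpha and 0.823 (0.727 to 0.929) in delta cells over 6 pools, and 0.873 (0.750 to 1.01) and 0.989 (0.842 to 1.16) over 4. For Ep300 they were 1.17 (1.07 to 1.29) in alpha and 1.13 (1.02 to 1.25) in delta cells over 6 pools, with intervals that included 1 over 4. For Atf1, Crtc1 and Crtc2 the intervals over 6 pools all included 1, and over 4 pools Atf1 was lower in alpha than in beta cells at 0.747 (0.606 to 0.915).

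Outside the endocrine cells Crtc1 was low in endothelial cells, at 0.374 CP10K (0.244 to 0.548) on 26 counts, with a ratio to beta of 0.360 (0.234 to 0.529) and lower in 6 of 6 groups. Without the FSK pools it was 0.371 (0.229 to 0.570). Crtc1 was also low in muscle cells, with a ratio to beta of 0.5639 (0.3333 to 0.8941), though higher in 1 of 6 groups. Without the FSK pools the muscle ratio was 0.402 (0.1731 to 0.7948) on 8 counts. Crtc3 was high in endothelial and muscle cells, with ratios to beta of 1.54 (1.28 to 1.84) and 1.61 (1.23 to 2.08), in 5 of 6 groups each, and of 1.94 (1.56 to 2.40) and 2.13 (1.49 to 2.96) without the FSK pools. Creb1 was higher in endothelial than in beta cells by 1.349 (1.104 to 1.633), in 4 of 6 groups, and Crebbp by 1.496 (1.32 to 1.691), in 5 of 6. Without the FSK pools these ratios were 1.976 (1.538 to 2.508), in 4 of 4 groups, and 1.281 (1.099 to 1.485), in 3 of 4. Sik2 and Crebbp were higher in muscle than in beta cells, by 1.73 (1.36 to 2.17) and 1.61 (1.35 to 1.92), in 6 of 6 groups. Without the FSK pools Crebbp had 1.36 (1.05 to 1.72), and for Sik2 the interval, at 1.41 (0.967 to 1.99), included 1. Sik1 in muscle cells went from 1.75 (1.03 to 2.79) to 3.77 (2.12 to 6.24), the latter on 16 counts. When the 9 cell types were ranked by level over 6 pools for each gene, 3 of the 80 neighbouring pairs had a ratio whose interval excluded 1: beta over delta for Creb1, beta over alpha for Crtc3 and delta over beta for Crebbp. In PP, macrophage, ductal and the columns labelled neurons the intervals were wide, and single pools were listed at 0 for several genes. Creb1 rested on 7 counts in all in ductal cells and Crem on 4 in the neurons columns.

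**Figure D4:**
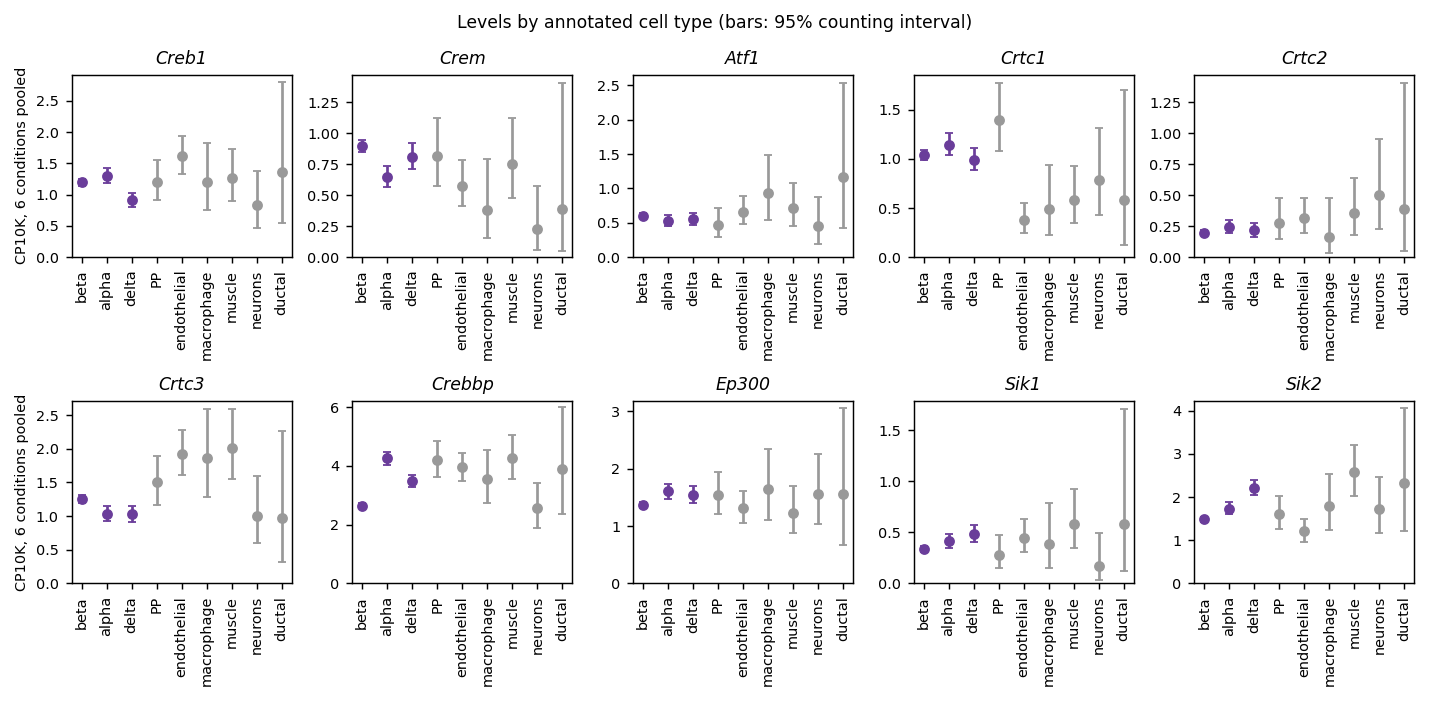
Levels of the 10 genes (y axis, CP10K over the 6 groups together, starting at 0) in the 9 annotated cell types (x axis; purple for beta, alpha and delta cells, grey for the rarer types), with 95% counting intervals. Crebbp is lower in beta cells, at 2.64 CP10K, than in alpha cells, at 4.26, and intervals are wider in the rarer types than in beta, alpha and delta cells.

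The other genes of the pathway were described with lists compiled for this work, with earlier results of these data known. Their counts in beta cells therefore describe the lists and do not test them. They are to be read against the shares of all genes given above. After FSK these were 7.52% higher and 20.1% lower in WT and 26.2% and 24.2% in the mutant. Of 23 CREB target genes found, 9 had enough counts in beta cells to be compared. Of these, 6 were higher after FSK in WT and 7 in the mutant, with none lower, and their median log2 ratio was 0.98 and 1.37. The minimum was set on all 6 pools, which favours genes that are high with FSK. Nr4a2 and Ppargc1a had 208 and 156 counts in the 4 pools without FSK, beside 528 and 308 in the FSK pools. With the minimum set on those 4 pools, a choice made after seeing the data, 6 targets were left, of which 4 were higher in WT and 5 in the mutant with none lower. With that minimum 6.5% of all genes were higher and 18.9% lower in WT, and 24.9% and 25% in the mutant. Nr4a2, an orphan nuclear receptor, was at 0.216, 0.747 and 0.238 CP10K in the CON, FSK and Ex-4 pools of WT, and in those of the mutant at 0.161, 1.29 and 0.214. Irs2, the insulin receptor substrate that supports beta cell survival, was in the same order at 0.621, 1.64 and 0.711 in WT, with 0.732, 1.89 and 0.590 for the mutant. Pde10a, a cAMP degrading phosphodiesterase, was at 30.9, 106.7 and 26.5 CP10K in WT, with 22.5, 105.6 and 24.7 for the mutant. In these 3 genes the FSK pools alone stood out, as for Sik1.

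After Ex-4 only Per1, a clock gene, was higher of the 9 targets in WT, and Pde3b, Pde4d and Ppargc1a were lower, beside 19.5% of all genes higher and 15% lower. None was called in the mutant, where 1.54% of all genes were higher and 1.92% lower. The coactivator gene Ppargc1a and the phosphodiesterase gene Pde3b were also lower in mutant beta cells without treatment, with log2 ratios to WT of -1.46 each. Per1 was higher there, at 0.91, so that 2 of the 9 were lower and 1 higher, beside 26.9% and 18.2% of all genes. The WT Ex-4 and the untreated genotype comparisons both rest on WT CON.

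Among 11 CREB/ATF bZIP relatives compared, 6 were lower and none was higher after FSK in WT, beside 20.1% and 7.52% of all genes, with a median log2 ratio of -0.70. In the mutant 6 were lower and 2 higher, beside 24.2% and 26.2%, with a median of -0.59. Crebrf, a regulator of Creb3 stability, had log2 ratios of -1.40 in WT and -0.59 in the mutant. Creb3, a membrane-bound factor of the endoplasmic reticulum, had -1.25 and -1.19, and Crebzf -1.06 and -1.08. These directions are opposite to those of Creb1 and Crem. The length trend was not removed for this or any other list, so its part in the list ratios was not tested. In the untreated mutant 4 of the 11 were higher, with Atf6b and Creb3 at 1.38 and 1.04, beside 18.2% of all genes. Another 4 were lower, with Creb3l2 at -0.85, beside 26.9%.

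Of 20 upstream kinase genes 2 were higher and 4 lower after FSK in WT, near the 7.52% and 20.1% of all genes, and 8 were higher and 2 lower in the mutant, beside 26.2% and 24.2%. Prkar1a, a regulatory subunit of PKA, had log2 ratios of 1.38 and 1.04, and Camk2d, a calcium/calmodulin-dependent kinase, 1.25 and 1.67. Prkaca, a catalytic subunit of PKA, was lower in WT at -0.90 and had 0.02 in the mutant. In the untreated mutant 10 of the 20 were lower and 1 higher, beside 26.9% and 18.2% of all genes, with Rps6ka5 (MSK1, a nuclear CREB kinase) at -1.42 and Cab39 (a partner of the SIK activating kinase LKB1) at -1.31. None of the 20 was called after Ex-4 in the mutant, where 1.54% of all genes were higher and 1.92% lower.

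Of 11 phosphatase genes none was called after FSK in WT, beside 7.52% of all genes higher and 20.1% lower, and 5 were higher and none lower in the mutant, beside 26.2% and 24.2%. Those with the largest log2 ratios in WT were Ppp2cb, a PP2A catalytic subunit, at -0.50, and the calcineurin subunits Ppp3ca at -0.37 and Ppp3cb at -0.36, none of which passed the threshold. Calcineurin dephosphorylates CRTCs, and its catalytic subunit gene Ppp3ca was at 1.75 CP10K in WT CON, 1.36 in WT FSK, 0.879 in WT Ex-4, 0.779 in mutant CON, 1.33 in mutant FSK and 0.815 in mutant Ex-4. WT CON was its highest pool, and Ppp3ca and Ppp1cb, a PP1 catalytic subunit, had log2 ratios of -1.17 and -1.08 between the untreated genotypes. There 4 of the 11 were lower and none higher in the mutant, beside 26.9% and 18.2% of all genes.

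Class IIa histone deacetylases are SIK substrates like the CRTCs. Of the 3 compared, Hdac4 was higher after FSK in WT and mutant at log2 ratios of 0.78 and 0.84. Hdac5 was lower at -1.24 and -1.65, and Hdac9 was lower in WT alone by call, at -1.42, and at -0.28 in the mutant. Of 15 other cofactor genes 1 was higher and 3 lower after FSK in WT, near the 7.52% and 20.1% of all genes, and 1 higher and 5 lower in the mutant, beside 26.2% and 24.2%. The higher gene was Med14 itself, at 0.66 and 0.90, a transcript level that a point mutation need not alter. Kat8, an acetyltransferase for histone H4, was lower at -1.23 and -1.40, and Kat5 (TIP60) at -0.62 in WT, with -0.46 in the mutant. In the untreated mutant 3 of the 15 were higher and 3 lower, beside 18.2% and 26.9% of all genes. Nono, a nuclear partner of CRTC proteins, and Sfpq, which pairs with Nono, were higher at 1.13 and 1.10, and Kat8 at 0.87. Ncoa1, Kat2b and Ncoa2 were lower, at -0.76, -0.66 and -0.61.

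**Figure D5:**
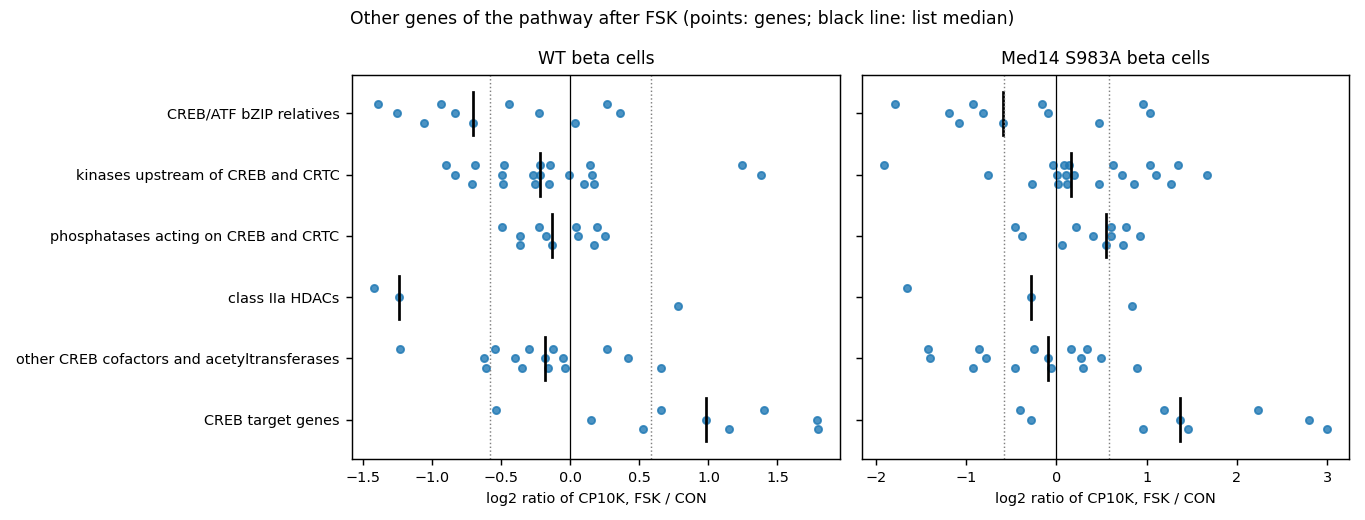
Log2 ratio of CP10K, FSK over CON, in WT and Med14 S983A beta cells (x axes) for the genes of the 6 pathway lists (rows) with at least 300 counts; points are genes, black lines list medians and dotted lines a ratio of 1.5. The CREB target genes lie to the right, with medians of 0.98 and 1.37, and the bZIP relatives to the left, with medians of -0.70 and -0.59.

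Likeness between genes was described over the 18 beta, alpha and delta pools, as Pearson's r of log2 CP10K centred within each cell type. The pools share depth, preparation and the WT CON groups, and no test was made. Among the 10 genes, Creb1 and Crem were most alike (r = 0.91), followed by Creb1 and Sik2 (0.85) and Crem and Sik2 (0.85). Creb1 was least like Crebbp (-0.75) and Crtc2 (-0.70). Over the 1661 genes compared in all 3 cell types, those nearest to Sik1 were Irs2 (0.92), the lncRNA Neat1 (0.85) and Pde10a (0.85). Those nearest to Creb1 were B830012L14Rik (0.97), Gmds (0.95) and Pak3 (0.95), and those nearest to Crtc2 were Macroh2a1, Gigyf1 and Usp36 (0.90, 0.90 and 0.88). Irs2 and Pde10a belong to the list of CREB targets, and none of the other 7 belongs to any of the lists. Crem, Sik1 and Crtc2 were themselves under the count minimum in alpha and delta cells, and Creb1 in delta cells. Sik1 and Crtc2 had as few as 3 counts in a pool, so their r values rest partly on few counts.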

How the data were processed

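Nuclei were barcoded with a combinatorial kit (Parse Evercode WT v3) in 8 sublibraries that each mix all 6 groups, told apart by barcode well. The authors aligned reads to mm39 with split-pipe 1.4.0, removed nuclei in the top or bottom 15th percentile of counts or features or above 1% mitochondrial reads, and used Seurat 5.3.0 with SCTransform, Harmony and CellKb annotation. How they pooled nuclei, and whether pooled counts were raw or corrected, is not stated. The deposited values are the natural log of 1 plus CP10K, as the authors made them, for 17362 genes, 6 groups and 9 cell types (54 columns).

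Counts were recovered from these values (100% within 0.001 of a whole number, largest distance 6.39e-05). Ratios of CP10K were given exact conditional intervals (95%) and single values exact Poisson intervals. The calculation was tested on simulated data. Positions and lengths were taken from GENCODE M39 on GRCm39, where 95.2% of genes matched once by name. Alternatives were the log2(CP10K + 1) scale, a 2-fold threshold, other filters (100, 1000 or no minimum), 0.5 counts added, columns rescaled without 15 ribosomal RNA linked, small RNA and mitochondrial genes, the median set to 0, a length trend removed by lowess (span 0.3) and Ex-4 as reference. Cell type ratios without the FSK pools, and the minimum set on the 4 pools without FSK, were added after seeing the data. Named genes were all 10 members. From each list they were the 3 with the largest WT FSK ratio and the 2 with the largest untreated genotype ratio, and further genes that passed the threshold were named after their values were seen. For the 3 members of widest range they were the 3 most correlated genes. Members and lists were chosen with earlier results of these data known. Scripts ran in Python 3.11.15 with scipy 1.17.1 for intervals, pandas 2.3.3 and numpy 2.4.6 for tables, matplotlib 3.10.9 for plots and statsmodels 0.14.6 for lowess.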

Additional observations from a re-analysis of the deposited data

Results flagged for a closer look

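In beta cells Crem lay on opposite sides of its own CON pool after Ex-4 in the genotypes, with a log2 ratio of -0.69 in WT and 0.43 in the mutant, and both counting intervals excluded a ratio of 1. It drew attention because the groups differ in direction. The difference was not tested, since each group is a single pool. The WT value rests on WT CON, which differed by 1.5-fold from WT Ex-4 at 34.5% of beta cell genes, and the Ex-4 pools themselves were at 0.557 and 0.621 CP10K, with a mutant to WT ratio of 1.12 (0.874 to 1.42).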

How the results depend on the processing

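No paired analysis was possible because each group and cell type is a single pool with no replicate number. Depth limited Crtc2 and Sik1 most, and in alpha and delta cells they could not be compared by the rule. The number of the 10 genes called in beta cells was 3 in WT FSK, 6 in mutant FSK, 2 in WT Ex-4, 0 in mutant Ex-4, 2 in untreated mutant against WT, 1 in mutant FSK against WT FSK and 0 in mutant Ex-4 against WT Ex-4. On the log2(CP10K + 1) scale, which understates the ratio of low genes, these became 0, 2, 0, 0, 0, 0 and 0. At 2-fold they were 1 in WT FSK, 0 in WT Ex-4 and likewise 0 in untreated mutant against WT and in mutant FSK against WT FSK. With 1000 counts required, which leaves 7 of the 10 genes, they were 1, 1, 1 and 0 in the same order. In mutant FSK, Creb1, Crem, Sik1 and Crtc2 passed 2-fold, and Creb1, Crem, Crtc3 and Crebbp stayed called with 1000 counts required. With the median set to 0 the numbers called were 5 in WT FSK, where Crem at 0.76 and Crtc3 at 0.72 were added, and 1 in mutant Ex-4 against WT Ex-4. Beside these, 1624 and 211 of all 6555 genes compared were called. With the length trend removed WT FSK stayed at 3, beside 1405 of all 6429 genes, but Crem, at 0.67, was called and Crtc2 was not. The numbers were 0 in WT Ex-4, 0 in mutant FSK against WT FSK and 1 in mutant Ex-4 against WT Ex-4. With Ex-4 as reference they were 7 in WT FSK. The log2 ratio of Crtc2 in WT Ex-4 turned from 0.75 to -0.014 with the length trend removed, the single called value of a treatment or genotype comparison that changed direction in these alternatives. With the FSK pools left out, an alternative chosen after seeing the data, the alpha to beta ratio of Sik1 turned from 1.23 to 0.638. Beyond the constructions of the alternatives, the cause was not tested.

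Over all genes, calls are given here for the log2(CP10K + 1) scale, the 2-fold threshold and a minimum of 100, 1000 or no counts, in that order. They were taken over 6555, 6555, 9818, 3010 and 16822 genes. In WT FSK 1809 calls became 225, 642, 3883, 578 and 8605, with 3452 against Ex-4. In mutant FSK 3303 became 788, 1696, 5282, 1534 and 10788. In WT Ex-4 2260 became 315, 651, 3864, 973 and 8458, with 1294 once the length trend was removed. In mutant Ex-4 227 became 5, 23, 941, 27 and 3642. In untreated mutant against WT 2960 became 538, 1143, 4657, 1390 and 10552, with 1963 once the length trend was removed. Between the FSK pools 623 became 14, 129, 2225, 59 and 7207, with 356 on removing the length trend. Between the Ex-4 pools 424 became 6, 45, 1129, 92 and 7164, with 251 on rescaling, 211 with the median at 0 and 201 on removing the length trend.

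The share of calls that were higher also moved with the scaling. It was 27.3% in WT FSK, against 47.2% with the median set to 0 and 54.1% with the length trend removed, and 56.5% in WT Ex-4, against 66.8% on rescaling. In mutant Ex-4 it was 44.5%, against 55.1% to 57.7% under these 3 alternatives. In untreated mutant against WT it was 40.4%, against 51.2% on rescaling and 53.4% with the median set to 0. Between the FSK pools it was 88.0%, against 66.9% with the length trend removed, and between the Ex-4 pools 10.1%, against 45.0% with the median set to 0 and 42.8% with the length trend removed. Rescaling moved the median log2 ratio of all genes from 0.04 to -0.10 in mutant FSK and from -0.14 to -0.02 in untreated mutant against WT.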
